A study of Mus musculus with 4 samples.

Results

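The 34 genes described here are 23 immediate early genes and 11 heat shock and chaperone genes. They were taken by symbol from a fixed list, and all 34 were found among the 30406 genes that the 4 deposited feature lists share. The immediate early genes comprise 15 transcription factors (Fos, Fosb, Fosl2, Jun, Junb, Jund, Egr1, Egr2, Egr3, Atf3, Nr4a1, Nr4a2, Nr4a3, Klf4 and Klf6) and 8 feedback genes (Ier2, Ier3, Ier5, Dusp1, Dusp2, Dusp5, Zfp36 and Btg2). The heat shock genes are Hspa1a, Hspa1b, Hsph1, Dnajb1, Dnaja1, Hspe1, Hspd1, Hsp90aa1, Hsp90ab1, Hspa8 and Hspa5. They were measured by single-cell RNA sequencing in live CD45.2+ immune cells from brains of mice bearing GL261, a transplanted mouse glioma. The tissue label is brain, although the protocol text in the labels once names the sorted cells as lung cells, and every library held a microglia gate. The 4 libraries came from IFNaR-/- mice (KO, without the receptor for type I interferon) given anti-PD1, WT mice given anti-PD1, KO mice without treatment and WT mice without treatment. Anti-PD1, an antibody against a checkpoint receptor of T cells, was given at 200 ug per mouse on days 7, 11, 15 and 19, and those cells were sorted on day 25. Untreated mice were sorted on day 20. Each library was 1 pool of an unstated number of mice, so there was no spread between replicates, no test was made, and every ratio below compares those libraries only. The deletion is in the whole animal as far as the labels say, so tumour-bearing hosts and not single lineages differ in genotype.

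Immediate early genes are transcribed within minutes of a stimulus from factors already present in the cell, without new protein synthesis. FOS, JUN and ATF3 proteins pair into AP-1 factors, EGR and NR4A proteins report receptor signalling, and the feedback genes encode phosphatases and RNA-binding proteins that end the response. Heat shock genes encode chaperones that hold or refold proteins. HSF1 switches on the inducible ones, above all Hspa1a and Hspa1b, when proteins misfold, whereas Hspa8 and Hsp90ab1 are made in unstressed cells too and Hspa5 serves the endoplasmic reticulum. Both families are known to respond to enzymatic dissociation at warm temperature, and immediate early genes also to antigen receptor and cytokine signals. The protocol in the labels describes an enzyme-based kit for tumour dissociation, a density gradient, red cell lysis and a sort.

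The deposited tables held between 3705 and 9530 barcodes and between 32410040 and 94732545 UMIs (counted molecules) per library. Lineages were gated on raw counts of marker genes, none of them among the 34. The T cell gate held 683 cells in anti-PD1 KO, 525 in anti-PD1 WT, 630 in untreated KO and 1379 in untreated WT. The microglia gate held 1513, 813, 239 and 350 cells in the same order of libraries, and the gate of monocytes and macrophages held 3172, 5493, 732 and 1389. Median UMIs per kept cell were 4940.0 in anti-PD1 KO, 8418 in anti-PD1 WT, 9482 in untreated KO and 7098 in untreated WT. Levels are CPM, the summed UMIs of a gene in a gate per 1000000 UMIs of that gate, and intervals in parentheses are 95% counting intervals that cover counting error only. Cd3e, the defining T cell gene, stood between 587 and 1276 CPM in the T cell gate and reached at most 6.25 CPM in the other large gates. Isg15, a gene that type I interferon induces, served as the check of genotype and stood over all cells at 58.6 CPM in anti-PD1 KO, 1053 in anti-PD1 WT, 93.7 in untreated KO and 979 in untreated WT. The receptor genes themselves did not show the deletion: Ifnar1 stood over all cells at 146 CPM in anti-PD1 KO, 77.0 in anti-PD1 WT, 130 in untreated KO and 97.9 in untreated WT, and Ifnar2 at 204, 298, 69.6 and 91.0 CPM. The labels do not name the subunit or the deleted part. Per the labels, CD3+ and CD3- cells were mixed 1:1 for the anti-PD1 sorts, yet the T cell gate held 8.67% of kept anti-PD1 KO cells and 6.01% of kept anti-PD1 WT cells. In the anti-PD1 libraries 97 KO barcodes and 96 WT barcodes also occurred in another library, against 4 and 5 in untreated KO and WT.

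**Figure D1:**
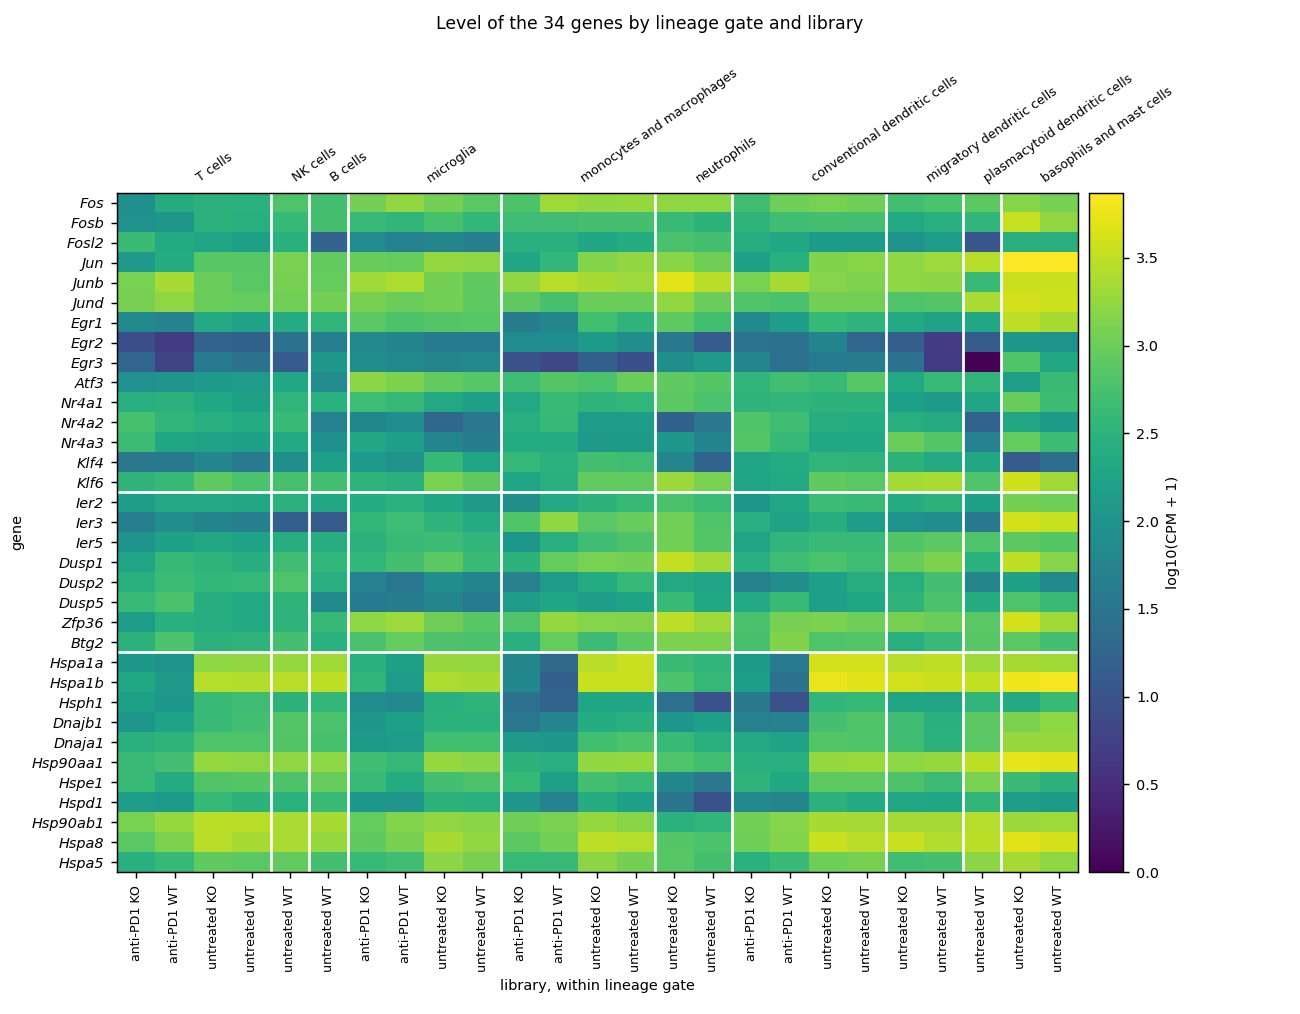
Level of each of the 34 genes (rows, grouped by role) in every lineage gate with at least 50 cells in a library (columns), as log10 of CPM. In T cells, microglia, and monocytes and macrophages, the Hspa1a and Hspa1b rows separate the anti-PD1 columns, at 14.3 to 339.6 CPM, from the untreated columns, at 1649.6 to 3538 CPM. Untreated neutrophils lie below that untreated range, with Hspa1a at 434 CPM in KO and 350 CPM in WT.

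Hspa1a and Hspa1b, the inducible HSP70 genes, gave the widest range of the 34 genes over these lineages and libraries. They lie next to each other on chromosome 17 and are near-identical copies whose reads the counting could split, so they are given mainly as a sum. In monocytes and macrophages the pair stood at 119.8 CPM in anti-PD1 KO, 35.2 in anti-PD1 WT, 6399 in untreated KO and 6992 in untreated WT cells. In microglia the sum was 628 CPM in anti-PD1 KO, 291 in anti-PD1 WT, 4367 in untreated KO and 4139 in untreated WT, and in T cells it was 318 CPM in anti-PD1 KO, 221 in anti-PD1 WT, 4429 in untreated KO and 4403 in untreated WT. Both untreated libraries were thus high in every one of these lineages and both anti-PD1 libraries low, with no overlap. The order of lineages also turned over: monocytes and macrophages carried the most HSP70 of the 3 lineages without treatment and the least after anti-PD1.

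The promoters of the pair and of Hspe1 are shown because they hold the heat shock element, the site that HSF1 binds. Each is the 250 bases before the annotated start in RefSeq on GRCm38.p6, read on the gene's strand, with the matches to GAANNTTC or TTCNNGAA in capitals. Both spellings read the same on the other strand. Hspa1a lies at chr17:34972157-34972406, minus strand, Hspa1b at chr17:34959239-34959488, minus strand and Hspe1 at chr1:55087898-55088147, plus strand.
Hspa1a: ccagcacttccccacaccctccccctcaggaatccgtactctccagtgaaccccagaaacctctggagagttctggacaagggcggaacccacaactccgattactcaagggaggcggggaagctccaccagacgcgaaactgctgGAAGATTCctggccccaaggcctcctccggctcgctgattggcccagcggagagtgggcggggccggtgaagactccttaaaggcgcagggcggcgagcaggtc
Hspa1b: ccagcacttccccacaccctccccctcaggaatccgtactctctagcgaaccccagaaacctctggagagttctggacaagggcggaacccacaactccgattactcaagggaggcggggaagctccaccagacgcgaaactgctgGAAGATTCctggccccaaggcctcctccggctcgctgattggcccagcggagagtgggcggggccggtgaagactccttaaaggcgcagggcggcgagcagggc
Hspe1: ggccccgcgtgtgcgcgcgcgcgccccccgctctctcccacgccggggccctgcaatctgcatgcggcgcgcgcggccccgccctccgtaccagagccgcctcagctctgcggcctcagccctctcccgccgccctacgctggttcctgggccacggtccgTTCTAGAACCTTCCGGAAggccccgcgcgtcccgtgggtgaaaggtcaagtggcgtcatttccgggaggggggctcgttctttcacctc

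The Hspa1a and Hspa1b windows differ at 3 of 250 bases and carry the same single element 104 bases before the start. Hspe1 carries 3 overlapping matches between 89 and 79 bases before its start. The annotated start of Hspd1 lies 95 bases away on the other strand, and the window of Hspd1 itself holds no match. A promoter was matched for 28 of the 34 genes, in windows that reach from 250 bases before to 50 after the start. The element was present in 5 of 8 heat shock promoters (Hspe1, Dnaja1, Hsph1, Hspa1b and Hspa1a), in 2 of 13 promoters of immediate early factors (Jun and Fosl2), in 0 of 7 of feedback genes, and in 15.1% of 27025 promoters in the table. A match describes the letters of the window and is not a measured binding site.

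Hspa1a made up 48.0% of the pair's UMIs in monocytes and macrophages of anti-PD1 KO, 59.4% in anti-PD1 WT, 44.7% in untreated KO and 49.6% in untreated WT. In microglia its share was 45.9%, 55.0%, 42.7% and 43.7% in the same order, and in T cells 35.7%, 44.3%, 37.2% and 40.5%. The KO share lay below the WT share in each of these 6 pairs. Basophils and mast cells, gated in the untreated libraries only, went the other way, with 27.6% in untreated KO and 24.0% in untreated WT. Since the counting can split reads between the copies, each copy's own level is uncertain.

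Cell by cell, most monocytes and macrophages held the pair without treatment and few did after anti-PD1. With each cell thinned to 1000 UMIs, cells with at least 1 UMI of either gene made up 7.03% (6.15 to 8.0%) of monocytes and macrophages in anti-PD1 KO, 2.93% (2.50 to 3.42%) in anti-PD1 WT, 78.1% (74.9 to 81.1%) in untreated KO and 79.2% (76.9 to 81.3%) in untreated WT. Unthinned, the same shares were 16.1%, 9.98%, 94.1% and 95.9%. Not every untreated lineage was as high: 57.7% of neutrophils in untreated KO and 27.3% in untreated WT had no UMI of the pair, unthinned. Their median UMIs were 2147 in untreated KO and 2666.5 in untreated WT. No cell type here is known to lack the pair. As a measure of free RNA, the T cell gate was read for Tgfbi, a macrophage gene that the T cell gate itself limits, of which 2.66% of thinned T cells had a UMI in anti-PD1 KO, 3.45% in anti-PD1 WT, 1.59% in untreated KO and 1.32% in untreated WT. Tgfbi stood at 1681, 1808, 2984 and 1954 CPM in monocytes and macrophages of those libraries, whereas the pair stood at 281, 88.6, 5977 and 5631 CPM over all cells, so the Tgfbi shares set no floor for the pair. The part of free RNA in the low anti-PD1 shares was not tested. Median UMIs were 5032, 8629, 9634 and 6472 in monocytes and macrophages, and 3356, 4847, 9247 and 8590.0 in T cells.

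Microglia kept more of the pair after anti-PD1, with thinned shares of 22.7% (20.6 to 24.9%) in anti-PD1 KO and 20.9% (18.2 to 23.9%) in anti-PD1 WT against 78.7% (72.9 to 83.8%) in untreated KO and 73.1% (68.1 to 77.7%) in untreated WT. T cells stood at 15.4% and 13.6% in anti-PD1 KO and WT, against 75.8% and 76.1% in untreated KO and WT. In monocytes and macrophages of anti-PD1 WT the cell with the highest share gave 2.85% of its UMIs to the pair while the median cell had none.

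**Figure D2:**
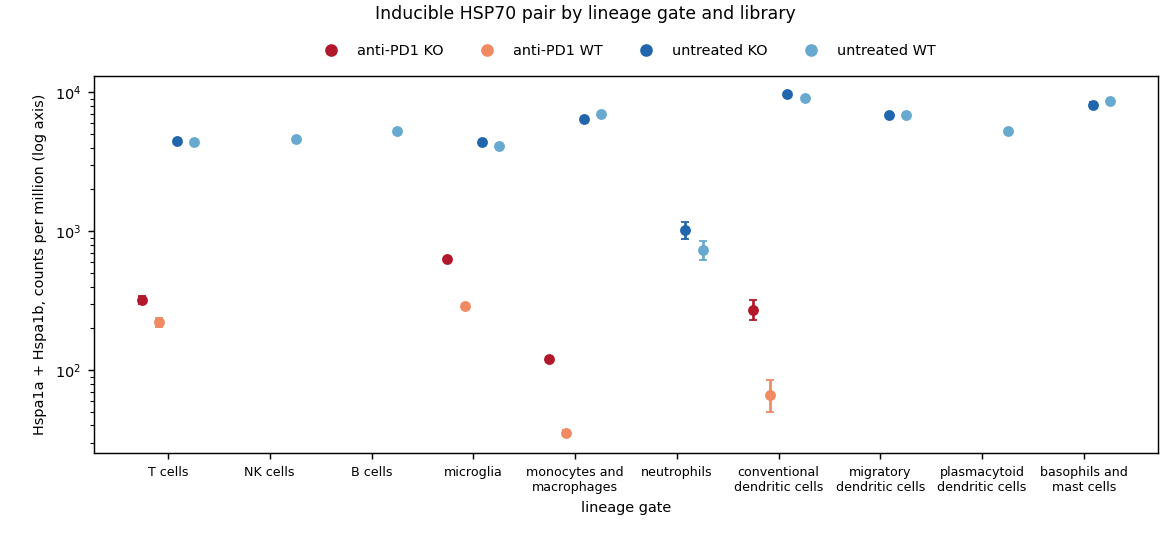
Summed level of Hspa1a and Hspa1b (CPM, log axis) by lineage gate and library, with 95% counting intervals. In T cells, microglia, and monocytes and macrophages the anti-PD1 libraries lie between 35.2 and 628 CPM and the untreated libraries between 4139 and 6992 CPM.

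Conventional dendritic cells, the smallest gate compared in all 4 libraries, had the highest untreated levels, with 273 CPM in anti-PD1 KO, 65.8 in anti-PD1 WT, 9684 in untreated KO and 9058 in untreated WT cells. The remaining gates had at least 50 cells only without treatment. Basophils and mast cells stood at 8096 CPM in untreated KO against 8682 in untreated WT, and migratory dendritic cells at 6824 CPM in untreated KO against 6864 in untreated WT. NK cells, B cells and plasmacytoid dendritic cells of untreated WT stood at 4621, 5254 and 5249.8 CPM. Neutrophils had the lowest untreated level, at 1020.0 CPM in untreated KO against 729 in untreated WT, although their immediate early genes summed to 26914 CPM in untreated KO and 18461 CPM in untreated WT.

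The comparison of anti-PD1 with untreated mice was made within each genotype. All 11 heat shock genes were lower in the anti-PD1 library in T cells, in microglia and in monocytes and macrophages, in KO and in WT alike, except that Hsp90ab1 of WT microglia and of WT monocytes and macrophages turned to higher with TMM factors. They were at least 2-fold lower for 10 of 11 in KO and 7 of 11 in WT T cells, for 9 and 8 in KO and WT microglia, and for 9 and 10 in KO and WT monocytes and macrophages. The share of all genes that far down was 8.14% of 9357 genes tested in KO T cells and 8.0% of 10080 in WT T cells, 10.1% of 9910 and 19.7% of 9826 in KO and WT microglia, and 14.3% of 10348 and 16.6% of 11382 in KO and WT monocytes and macrophages. The median log2 ratio of the 11 was -1.56 and -1.55 in KO and WT T cells, -1.92 and -1.45 in microglia, and -2.02 and -2.21 in monocytes and macrophages. Over all genes tested it was 0.03 and 0.06, -0.18 and -0.31, and -0.25 and -0.17 in the same order. The heat shock genes that were at least 2-fold lower in both genotypes numbered 6 of 11 in T cells, 7 in microglia and 9 in monocytes and macrophages, and Hspa1a, Hspa1b, Hsph1, Hsp90aa1 and Hspd1 were among them in every lineage. The share of all genes that far down in both genotypes was not computed.

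The inducible pair led. Its sum had a log2 ratio of -5.74 (-5.80 to -5.68) in KO and -7.64 (-7.70 to -7.57) in WT monocytes and macrophages, of -2.80 (-2.84 to -2.76) and -3.83 (-3.88 to -3.77) in microglia, and of -3.80 (-3.90 to -3.70) and -4.31 (-4.43 to -4.21) in T cells. Hsph1, the HSP110 exchange factor that works with HSP70, stood in T cells at 160.1 CPM in anti-PD1 KO against 423 in untreated KO, and 113 in anti-PD1 WT against 465 in untreated WT. Hsph1 in monocytes and macrophages stood at 27.1 CPM in anti-PD1 KO against 194 in untreated KO, and 15.8 in anti-PD1 WT against 189 in untreated WT. Its gap was therefore wider in the myeloid cells, where its level was also lower throughout. Dnajb1, the J-domain partner of inducible HSP70, stood in monocytes and macrophages at 32.3 CPM in anti-PD1 KO against 244 in untreated KO, and 61.6 in anti-PD1 WT against 284 in untreated WT, and Dnaja1, another J-domain protein, at 124 CPM in anti-PD1 KO against 505 in untreated KO, and 114 in anti-PD1 WT against 591 in untreated WT. Hsp90aa1, the stress-inducible cytosolic HSP90, stood there at 321 CPM in anti-PD1 KO against 1741 in untreated KO, and 270.1 in anti-PD1 WT against 1806 in untreated WT. All 3 of these genes were at least 2-fold lower in both genotypes of that lineage.

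The ratios of the chaperones made in unstressed cells varied with gene and lineage. Hspa8, the constitutive HSP70, stood in T cells at 769 CPM in anti-PD1 KO against 2849 in untreated KO, and 1269 in anti-PD1 WT against 2334 in untreated WT, with log2 ratios of -1.89 (-1.95 to -1.83) in KO and -0.88 (-0.93 to -0.83) in WT. Hsp90ab1, the constitutive HSP90, stood in monocytes and macrophages at 1083 CPM in anti-PD1 KO against 1783 in untreated KO, and 1255 in anti-PD1 WT against 1535 in untreated WT, and its log2 ratios there were -0.72 (-0.75 to -0.69) and -0.29 (-0.32 to -0.26). Among the 3 lineages Hsp90ab1 reached 2-fold in KO T cells alone. Hspa5, also called BiP, the HSP70 of the endoplasmic reticulum, stood in microglia at 414 CPM in anti-PD1 KO against 1570.2 in untreated KO, and 482 in anti-PD1 WT against 1194 in untreated WT. Hspe1 and Hspd1, which encode the small and large subunit of the mitochondrial chaperonin, had log2 ratios of -0.39 and -1.26 in KO and -1.46 and -1.59 in WT monocytes and macrophages, so the WT ratios were the more negative for both.

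**Figure D3:**
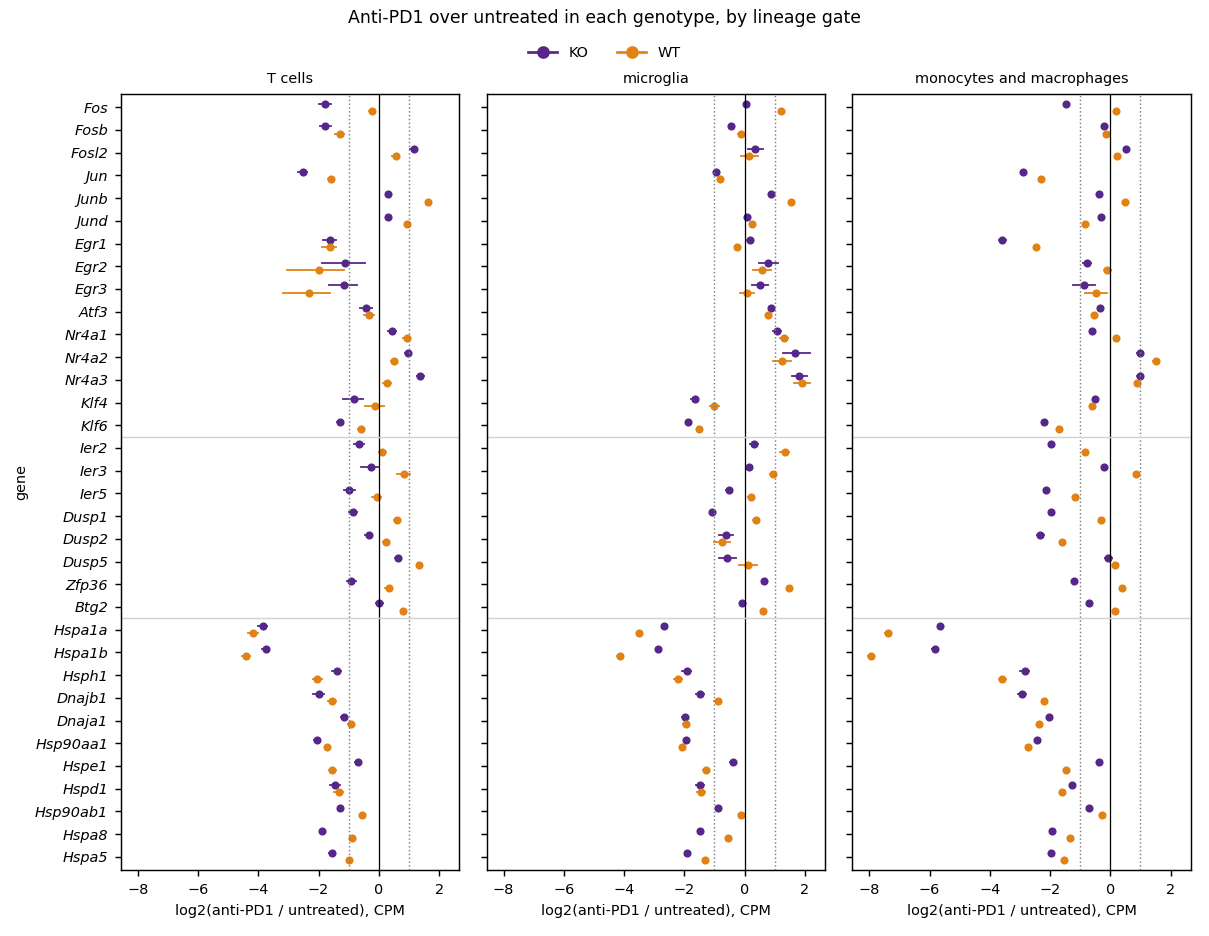
Log2 ratio of anti-PD1 over untreated for each of the 34 genes in KO and in WT cells, by lineage, with 95% counting intervals and the 2-fold limits marked. All 11 heat shock genes lie below 0 in all panels as plotted, with Hspa1a and Hspa1b lowest; Hsp90ab1 of WT microglia and WT monocytes and macrophages moves above 0 with TMM factors.

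Companion lists of chaperone genes were partly lower after anti-PD1, and their counts are to be read against the shares of all genes that far down, 8.14% and 8.0% in KO and WT T cells, 10.1% and 19.7% in microglia, and 14.3% and 16.6% in monocytes and macrophages. Of the other cytosolic heat shock and HSF1-linked genes measured, 9 of 33 in KO and 7 of 33 in WT T cells were at least 2-fold lower, 8 of 33 and 9 of 34 in microglia, and 10 of 33 and 8 of 33 in monocytes and macrophages. Only 1 of them, in WT microglia, was at least 2-fold higher, and the list's median log2 ratio was -0.78 and -0.24 in KO and WT T cells, -0.60 and -0.17 in microglia, and -0.58 and -0.24 in monocytes and macrophages. Genes of the unfolded protein response of the endoplasmic reticulum were at least 2-fold lower for 5 of 23 and 1 of 23 in KO and WT T cells, for 7 of 21 and 5 of 21 in microglia, and for 7 of 22 and 6 of 23 in monocytes and macrophages, and none was as far up. The WT T cell count of that list lay below the share of all genes, and both WT microglia counts lay near it.

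Treatment, day of sort, the CD3 mixing of the sort and the Cell Ranger version in the file headers differ together between these libraries and cannot be told apart. The median mitochondrial share of a kept cell moved too, at 1.71% in anti-PD1 KO, 0.608% in anti-PD1 WT, 4.25% in untreated KO and 2.99% in untreated WT. Genes with under 1 kb of intron, to which Hspa1a, Hspa1b and 8 of the immediate early genes belong, had median log2 ratios of -0.35 and -0.13 in KO and WT T cells, -0.36 and -0.20 in microglia, and -0.58 and -0.43 in monocytes and macrophages. The part of any of these in the heat shock ratios was not tested.

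The immediate early genes past 2-fold differed between the lineages. In T cells Fosb, Jun, Egr1, Egr2 and Egr3 were at least 2-fold lower after anti-PD1 in both genotypes, among 7 of 15 factors in KO and 5 of 15 in WT. In microglia 3 of 15 factors, the NR4A genes, were at least 2-fold higher in both genotypes, and 2 of 15, Klf4 and Klf6, at least 2-fold lower. In monocytes and macrophages Jun, Egr1 and Klf6, with the feedback genes Ier5 and Dusp2, were at least 2-fold lower in both. The share of all genes at least 2-fold higher was 14.4% of 9357 genes tested in KO T cells and 11.8% of 10080 in WT T cells, 9.61% of 9910 and 7.0% of 9826 in KO and WT microglia, and 9.94% of 10348 and 10.0% of 11382 in KO and WT monocytes and macrophages, and the share as far down is given above. Each of these shares is for a single genotype, and the share of all genes past 2-fold in both was not computed. The count of lower factors in microglia is therefore not read as a result about the members. Over the 3 lineages, values at least 2-fold higher and lower numbered 10 and 37 in WT, and 16 and 35 with TMM factors, whereas in KO they numbered 5 and 47, and 10 and 46 with TMM factors.

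Jun, an AP-1 subunit whose gene has no introns, stood in T cells at 125 CPM in anti-PD1 KO against 725 in untreated KO, and 245 in anti-PD1 WT against 742 in untreated WT. In monocytes and macrophages Jun stood at 193 CPM in anti-PD1 KO against 1441 in untreated KO, and 362 in anti-PD1 WT against 1776 in untreated WT, and in microglia at 944 CPM in anti-PD1 KO against 1809 in untreated KO, and 909.8 in anti-PD1 WT against 1615 in untreated WT. The gap was thus narrower in microglia, with log2 ratios of -0.94 in KO and -0.83 in WT, than in monocytes and macrophages, with -2.90 and -2.29. Egr1, a zinc finger factor downstream of ERK signalling, stood in monocytes and macrophages at 41.6 CPM in anti-PD1 KO against 500 in untreated KO, and 59.0 in anti-PD1 WT against 326 in untreated WT. In microglia Egr1 stood at 772 CPM in anti-PD1 KO against 686 in untreated KO, and 610.4 in anti-PD1 WT against 723 in untreated WT, with log2 ratios near 0 (0.17 (0.10 to 0.25) in KO and -0.24 (-0.31 to -0.17) in WT). The Egr1 levels of the anti-PD1 and untreated libraries did not overlap in monocytes and macrophages or in T cells, and overlapped in microglia.

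Klf6, a zinc finger factor of activation responses, was lower in all 3 lineages after anti-PD1, with 330.4 CPM in anti-PD1 KO against 1223 in untreated KO, and 290.0 in anti-PD1 WT against 823 in untreated WT in microglia. Klf4, a related factor of monocytes, stood in microglia at 123 CPM in anti-PD1 KO against 387 in untreated KO, and 91.8 in anti-PD1 WT against 184 in untreated WT. The NR4A genes, nuclear receptors that T cells express after receptor signalling, went the other way. Nr4a3 stood in T cells at 443 CPM in anti-PD1 KO against 172 in untreated KO, and 194 in anti-PD1 WT against 162 in untreated WT, and in microglia at 209.9 CPM in anti-PD1 KO against 59.3 in untreated KO, and 152 in anti-PD1 WT against 40.9 in untreated WT. Nr4a2 stood in monocytes and macrophages at 266 CPM in anti-PD1 KO against 134 in untreated KO, and 397 in anti-PD1 WT against 139 in untreated WT, with log2 ratios of 0.99 (0.89 to 1.09) in KO and 1.51 (1.43 to 1.59) in WT. Nr4a3 and Nr4a2 were higher in both anti-PD1 libraries in every one of the 3 lineages. These genes have long introns (Nr4a2 13115 bases, Nr4a3 35308 bases), whereas Jun has none and Egr1 has 678 bases, and the part of intronic reads in this contrast was not tested.

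Fos, the first of the AP-1 genes to respond in most cells, differed with treatment in ways that depended on lineage and genotype. Its level in monocytes and macrophages was 625 CPM in anti-PD1 KO, 2065 in anti-PD1 WT, 1732 in untreated KO and 1818 in untreated WT, so that anti-PD1 KO alone was low. In T cells Fos stood at 88.1 CPM in anti-PD1 KO, 249.6 in anti-PD1 WT, 305 in untreated KO and 292 in untreated WT, so that both anti-PD1 levels were the lower ones, although the WT ratio turned to higher with the total of genes with under 1 kb of intron. In microglia it stood at 1171 CPM in anti-PD1 KO, 1723 in anti-PD1 WT, 1139 in untreated KO and 754 in untreated WT. The anti-PD1 level was thus the higher one in WT, and the KO levels were nearly equal. Junb, an AP-1 partner kept at high level in activated lymphocytes, stood in T cells at 1255 CPM in anti-PD1 KO against 1018 in untreated KO, and 2295 in anti-PD1 WT against 749 in untreated WT and in microglia at 2104 CPM in anti-PD1 KO against 1139 in untreated KO, and 2447 in anti-PD1 WT against 838 in untreated WT, higher after anti-PD1 in both genotypes. Atf3, a stress-induced AP-1 factor, stood in microglia at 1573 CPM in anti-PD1 KO against 859.9 in untreated KO, and 1273 in anti-PD1 WT against 735 in untreated WT. Fosb stood in T cells at 89.9 CPM in anti-PD1 KO against 309 in untreated KO, and 110.3 in anti-PD1 WT against 273 in untreated WT.

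Fosl2, a late-lasting FOS relative, stood in T cells at 434 CPM in anti-PD1 KO against 195 in untreated KO, and 229.7 in anti-PD1 WT against 157 in untreated WT, past 2-fold in KO (log2 ratio 1.16 (1.05 to 1.27)). Jund, the least inducible JUN gene, stayed within 2-fold in every lineage, with 809.5 CPM in anti-PD1 KO against 1013 in untreated KO, and 553 in anti-PD1 WT against 990.2 in untreated WT in monocytes and macrophages. Nr4a1 stood in T cells at 274 CPM in anti-PD1 KO against 201 in untreated KO, and 303 in anti-PD1 WT against 160.3 in untreated WT and in microglia at 459 CPM in anti-PD1 KO against 217 in untreated KO, and 381 in anti-PD1 WT against 154 in untreated WT. Egr2 and Egr3, which follow strong antigen receptor signals in T cells, were scarce. In T cells Egr2 stood at 7.40 CPM in anti-PD1 KO against 16.4 in untreated KO, and 3.58 in anti-PD1 WT against 14.8 in untreated WT, and Egr3 at 17.3 CPM in anti-PD1 KO against 39.2 in untreated KO, and 5.21 in anti-PD1 WT against 26.7 in untreated WT. Egr2 rested on few molecules there and was under the minimum of 50 UMIs for the KO and WT pair of anti-PD1.

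The feedback genes gave different counts in the 2 genotypes. In KO monocytes and macrophages 5 of 8 (Ier2, Ier5, Dusp1, Dusp2 and Zfp36) were at least 2-fold lower after anti-PD1 and the median log2 ratio was -1.58, whereas in WT 2 of 8 were and the median was -0.08. Ier5, a protein that recruits a phosphatase to HSF1, stood there at 112 CPM in anti-PD1 KO against 490.3 in untreated KO, and 274 in anti-PD1 WT against 622 in untreated WT. Dusp2, a nuclear phosphatase of MAP kinases, stood at 47.3 CPM in anti-PD1 KO against 236 in untreated KO, and 131 in anti-PD1 WT against 397 in untreated WT. In T cells 0 of 8 feedback genes were as far down in either genotype, and Dusp5, a phosphatase of ERK, was past 2-fold upwards in WT, at 400.1 CPM in anti-PD1 KO against 259 in untreated KO, and 569 in anti-PD1 WT against 224 in untreated WT. Of the other immediate early and early response genes measured in monocytes and macrophages, 21 of 38 in KO and 12 of 40 in WT were at least 2-fold lower, against 14.3% and 16.6% of all genes. Genes of T cell receptor activation were at least 2-fold higher in T cells for 4 of 19 in KO and 9 of 19 in WT, against 14.4% and 11.8% of all genes, so that the KO count lay near its background.

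The comparison of KO with WT asks what loss of the interferon receptor does to these genes. Without treatment the genotypes were close. In T cells 0 of 34 genes differed by 2-fold, against 2.53% of 10217 genes tested. In microglia 1 of 34 did, against 4.4% of 8438, and in monocytes and macrophages 0 of 34, against 9.7% of 9836. The microglial gene was Klf4, at 387 CPM in untreated KO against 184 in untreated WT, a log2 ratio of 1.07 (0.92 to 1.22). Microglia leaned upwards as a group, with 8 of 8 feedback genes and 12 of 15 factors higher in KO and median log2 ratios of 0.53 and 0.44, against 0.02 over all genes. The makeup and quality of the gate moved too. Its median mitochondrial share was 5.82% in untreated KO and 3.49% in untreated WT, its 12 microglia markers summed to 13063 and 13763 CPM, and its 17 markers of monocytes and macrophages to 1516 and 1635 CPM, none of either list at 0. Among these Tgfbi stood at 108 CPM in untreated KO against 41.6 in untreated WT, Lyz2 at 989 against 686 and Tmem119, a microglia marker, at 619 against 844. Under a filter of 500 genes and 5% mitochondrial UMIs, 86 KO and 237 WT microglia were left, and the median immediate early share of a cell was 1.25% in untreated KO and 1.01% in untreated WT, against 1.16% and 0.763% before. The part of any of these in the microglia ratios was not tested. Dusp1 stood in microglia at 781 CPM in untreated KO against 412 in untreated WT and Ier2 at 197 CPM in untreated KO against 119 in untreated WT, both under 2-fold. The heat shock genes of untreated microglia had a median log2 ratio of 0.10, and the HSP70 pair had 0.08 (0.04 to 0.11).

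In untreated monocytes and macrophages the HSP70 pair was 6399 CPM in untreated KO against 6992 in untreated WT, a log2 ratio of -0.13 (-0.14 to -0.11). The ratios furthest from 0 there were those of Egr3, at 14.6 CPM in untreated KO against 7.94 in untreated WT, of Btg2, at 455 CPM in untreated KO against 796 in untreated WT, and of Atf3, at 590.2 CPM in untreated KO against 1019 in untreated WT. None of these reached 2-fold. Of the genes of the unfolded protein response, 3 of 23 were at least 2-fold higher in KO after anti-PD1, against 9.12% of all genes, and 5 of 22 without treatment, against 5.09%, with median log2 ratios of 0.33 and 0.65. The companion genes named next were picked for 1 direction in both pairs, so that direction is no finding. Canx, calnexin, stood at 416 CPM in anti-PD1 KO against 161 in anti-PD1 WT, and 471 in untreated KO against 178 in untreated WT. Hsp90b1, the HSP90 of that compartment, stood at 911 CPM in anti-PD1 KO against 454 in anti-PD1 WT, and 907 in untreated KO against 425 in untreated WT. Pdia4, a disulfide isomerase there, had log2 ratios of 0.82 with anti-PD1 and 1.63 without. Canx and Hsp90b1 were at least 2-fold higher in KO with and without anti-PD1, and Hspa9, the mitochondrial HSP70, was so too, at 144 CPM in anti-PD1 KO against 69.3 in anti-PD1 WT, and 128 in untreated KO against 54.2 in untreated WT. Hspa5, the member of the same compartment as Canx, had log2 ratios of -0.02 with anti-PD1 and 0.42 without.

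After anti-PD1 more members differed between the genotypes in monocytes and macrophages than in T cells or microglia: 7 of 8 feedback genes and Fos were at least 2-fold lower in KO and 4 of 11 heat shock genes were at least 2-fold higher. Of all 11479 genes tested there, 8.16% were as far down and 9.12% as far up. Fos stood at 625 CPM in anti-PD1 KO against 2065 in anti-PD1 WT, a log2 ratio of -1.72 (-1.75 to -1.70). Zfp36, which encodes tristetraprolin, an RNA-binding protein that destabilises cytokine messages, stood at 642 CPM in anti-PD1 KO against 1833 in anti-PD1 WT, a log2 ratio of -1.51 (-1.54 to -1.49). Both KO levels were also lower than either untreated level of the same gene. Dusp1, the phosphatase that inactivates p38 and JNK, stood at 314 CPM in anti-PD1 KO against 917 in anti-PD1 WT, and Btg2, an antiproliferative cofactor of RNA decay, at 281 CPM in anti-PD1 KO against 890.1 in anti-PD1 WT. Ier3, an apoptosis regulator, stood at 656 CPM in anti-PD1 KO against 1677 in anti-PD1 WT, where the WT level was the highest of the 4 libraries (754 CPM in untreated KO against 931 in untreated WT).

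Ier2 stood at 80.9 CPM in anti-PD1 KO against 216 in anti-PD1 WT, Ier5 at 112 CPM in anti-PD1 KO against 274 in anti-PD1 WT and Dusp2 at 47.3 CPM in anti-PD1 KO against 131 in anti-PD1 WT, which gives log2 ratios of -1.42, -1.29 and -1.47. Dusp5 was the feedback gene with the ratio nearest to 0 (-0.53 (-0.59 to -0.47)). Over the 3 lineages, 7 values of the 34 genes were at least 2-fold higher and 11 at least 2-fold lower in KO, and 6 and 15 with DESeq2 size factors. Other factors of monocytes and macrophages had smaller ratios: Jun stood at 193 CPM in anti-PD1 KO against 362 in anti-PD1 WT, Nr4a1 at 214 CPM in anti-PD1 KO against 412 in anti-PD1 WT and Junb at 1743 CPM in anti-PD1 KO against 2813 in anti-PD1 WT, all lower in KO, whereas Jund stood higher in KO, at 809.5 CPM in anti-PD1 KO against 553 in anti-PD1 WT. Fosb and Nr4a3 had log2 ratios of -0.07 and -0.01. Conventional dendritic cells numbered 67 in each anti-PD1 library. Fos stood there at 478 CPM in anti-PD1 KO against 1037 in anti-PD1 WT, Zfp36 at 582 CPM against 1175 and Btg2 at 564 CPM against 1364. Each was at least 2-fold lower in KO, as were 7.47% of 3802 genes tested. The number of members measured and past 2-fold in that gate is not given here. These values are therefore not read as a pattern shared with monocytes and macrophages.

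The feedback promoters shown next are shown because they carry the cAMP response element, bound by CREB, or the CArG box, bound by serum response factor, elements that textbook accounts tie to immediate early induction. Each is again the 250 bases before the start in RefSeq on GRCm38.p6. Capitals mark TGACGTCA in Dusp1 and Btg2 and the CArG box in Zfp36. Dusp1 lies at chr17:26508473-26508722, minus strand, Btg2 at chr1:134079156-134079405, minus strand and Zfp36 at chr7:28379229-28379478, minus strand.
Dusp1: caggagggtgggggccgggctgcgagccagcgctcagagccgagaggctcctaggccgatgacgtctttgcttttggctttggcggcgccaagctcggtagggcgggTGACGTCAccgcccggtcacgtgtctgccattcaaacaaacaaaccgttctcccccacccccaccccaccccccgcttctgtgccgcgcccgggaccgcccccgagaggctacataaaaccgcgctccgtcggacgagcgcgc
Btg2: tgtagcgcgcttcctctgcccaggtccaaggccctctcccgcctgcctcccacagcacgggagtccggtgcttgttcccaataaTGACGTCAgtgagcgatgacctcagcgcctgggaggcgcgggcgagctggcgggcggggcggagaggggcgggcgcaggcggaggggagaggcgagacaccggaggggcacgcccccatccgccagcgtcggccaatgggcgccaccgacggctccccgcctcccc
Zfp36: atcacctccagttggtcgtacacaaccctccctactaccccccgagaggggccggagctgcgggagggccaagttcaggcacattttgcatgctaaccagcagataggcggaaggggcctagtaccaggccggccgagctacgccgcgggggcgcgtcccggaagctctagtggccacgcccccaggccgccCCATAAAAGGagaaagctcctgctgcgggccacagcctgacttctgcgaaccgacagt

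The CREB element lies 143 bases before the start of Dusp1 and 166 bases before that of Btg2, and the CArG box 58 bases before that of Zfp36. TGACGTCA was present in 2 of 7 feedback promoters, in 0 of 13 promoters of factors, in 0 of 8 of heat shock genes and in 1.88% of all 27025. The CArG box was present in 2 of 7 feedback promoters (Zfp36 and Dusp5), in none of the other 21 and in 1.57% of all. The AP-1 site TGANTCA occurred in Hspa5 alone of the 28, against 7.93% of all. TGACGTCA, TGANTCA and the CArG box were searched on both strands.

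The 4 heat shock genes that were at least 2-fold higher in KO monocytes and macrophages after anti-PD1 were Hspa1a, Hspa1b, Hspe1 and Hspd1. The HSP70 pair stood at 119.8 CPM in anti-PD1 KO against 35.2 in anti-PD1 WT, a log2 ratio of 1.77 (1.68 to 1.86). Hspe1 stood at 393 CPM in anti-PD1 KO against 150.0 in anti-PD1 WT and Hspd1 at 104 CPM in anti-PD1 KO against 50.6 in anti-PD1 WT, so both subunits of the mitochondrial chaperonin had a higher level in KO. Hsp90ab1 stood at 1083 CPM in anti-PD1 KO against 1255 in anti-PD1 WT, Hspa8 at 799 CPM in anti-PD1 KO against 1109 in anti-PD1 WT and Dnajb1 at 32.3 CPM in anti-PD1 KO against 61.6 in anti-PD1 WT, each lower in KO. The 11 chaperones therefore did not move as 1 block between genotypes, and their median log2 ratio was 0.25 against 0.10 over all genes. The anti-PD1 WT level of the pair rested on 1829 UMIs in 5493 cells, and every ratio with it carries the untested part of free RNA.

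The lower levels in KO were present in both parts of the macrophage gate. Among C1q-high cells, which take a larger share of their UMIs from complement C1q genes, 4 genes were at least 2-fold higher and 8 at least 2-fold lower in KO, and among C1q-low cells 5 genes were at least 2-fold higher and 10 at least 2-fold lower in KO. Background shares were 8.48% higher and 7.74% lower in C1q-high cells, and 12.9% and 10.2% in C1q-low cells. The counts of higher genes lay near these shares in both parts and are not read as a result about the members. Fos had log2 ratios of -1.65 (-1.68 to -1.63) in C1q-high and -1.82 (-1.91 to -1.74) in C1q-low cells. The gate's makeup differed with genotype: C1q genes summed to 8412 CPM in anti-PD1 KO and 13809.9 CPM in anti-PD1 WT, the 12 microglia markers to 1167 and 1503 CPM, and the 9 neutrophil markers to 154 and 397 CPM. Their part in the result was not tested. The median mitochondrial share in the gate was 1.59% in anti-PD1 KO and 0.545% in anti-PD1 WT. Of the 841 genes with under 1 kb of intron, 129 were at least 2-fold lower and 102 at least 2-fold higher, with a median of -0.14.

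In T cells after anti-PD1, 2 of 33 genes measured were at least 2-fold higher in KO and 3 at least 2-fold lower, against 6.07% and 6.11% of 8506 genes tested. Both counts lay near these shares and are not read as a result about the members. Egr3 stood at 17.3 CPM in anti-PD1 KO against 5.21 in anti-PD1 WT and Nr4a3 at 443 CPM in anti-PD1 KO against 194 in anti-PD1 WT, log2 ratios of 1.70 (0.89 to 2.64) and 1.19 (1.05 to 1.33). The Egr3 level in anti-PD1 WT rested on few molecules. Fos stood at 88.1 CPM in anti-PD1 KO against 249.6 in anti-PD1 WT, Dusp1 at 179 CPM in anti-PD1 KO against 392 in anti-PD1 WT and Zfp36 at 137 CPM in anti-PD1 KO against 286 in anti-PD1 WT, each lower in KO here and in monocytes and macrophages. The T cell gate held myeloid transcripts, with Lyz2 at 399 CPM in anti-PD1 KO, 307 in anti-PD1 WT, 13.3 in untreated KO and 24.0 in untreated WT, against 10652, 12399, 3662 and 5932 CPM in monocytes and macrophages. Their part in the T cell levels was not tested. Genes with under 1 kb of intron had a median log2 ratio of -0.41 in this pair, against 0.14 over all genes, and the feedback genes -0.77. Fos in CD8 T cells stood at 56.8 CPM in anti-PD1 KO against 216 in anti-PD1 WT and in CD4 T cells at 138 CPM in anti-PD1 KO against 286 in anti-PD1 WT.

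Microglia had the fewest members past 2-fold between the anti-PD1 genotypes. Of 34 genes 1 was at least 2-fold higher in KO and 0 as far down, against 10.2% and 4.67% of 10495 genes tested. That gene was Hspa1b, at 339.6 CPM in anti-PD1 KO against 131 in anti-PD1 WT, and Hspa1a stood at 288 CPM in anti-PD1 KO against 160.2 in anti-PD1 WT, under 2-fold. The sum of the pair had a log2 ratio of 1.11 (1.05 to 1.17). Fos stood at 1171 CPM in anti-PD1 KO against 1723 in anti-PD1 WT and Zfp36 at 1652 CPM in anti-PD1 KO against 2005 in anti-PD1 WT, smaller gaps than in monocytes and macrophages. Egr1 stood at 772 CPM in anti-PD1 KO against 610.4 in anti-PD1 WT and Atf3 at 1573 CPM in anti-PD1 KO against 1273 in anti-PD1 WT, both higher in KO by under 2-fold.

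**Figure D4:**
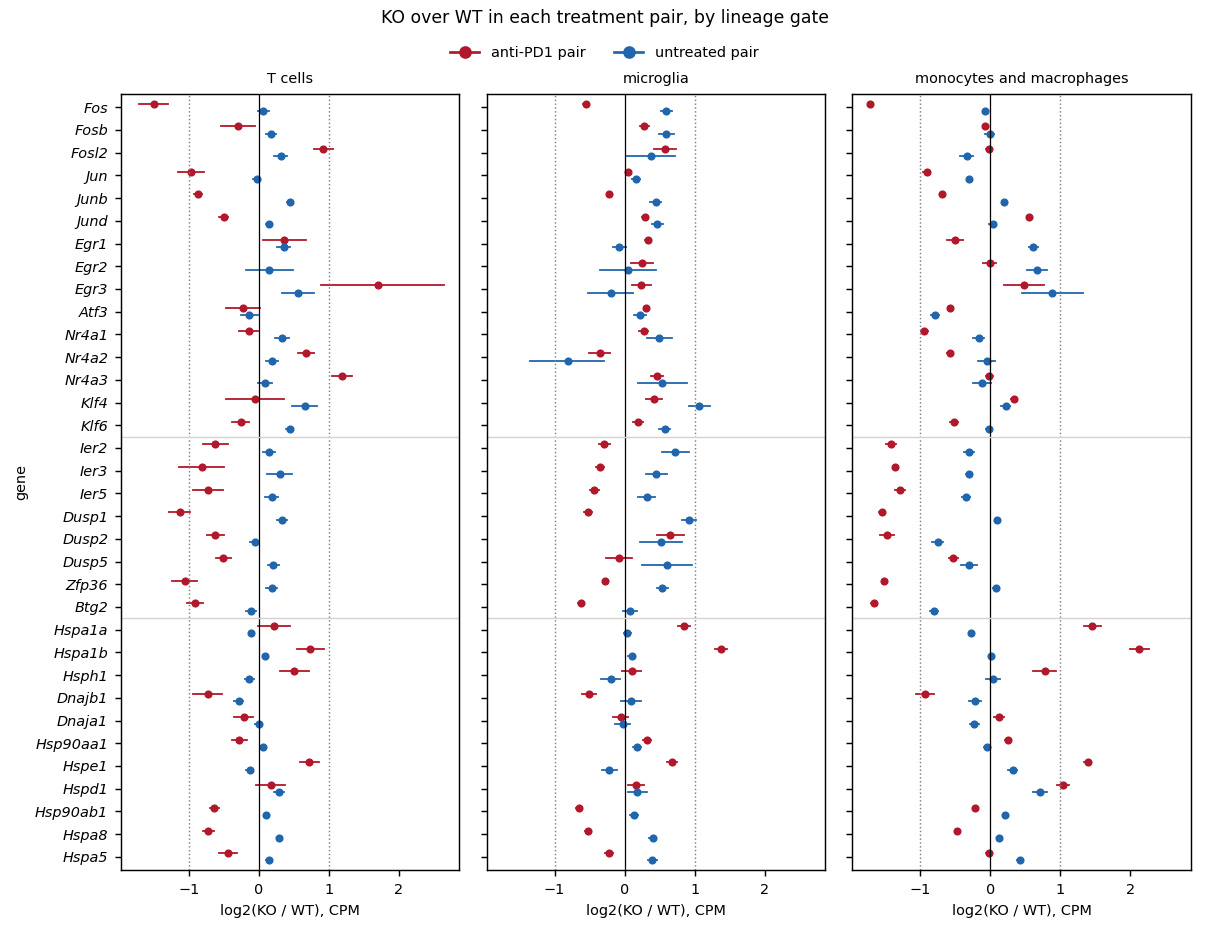
Log2 ratio of KO over WT for each of the 34 genes after anti-PD1 and without treatment, by lineage, with 95% counting intervals and the 2-fold limits marked. In monocytes and macrophages after anti-PD1 the feedback genes lie between -1.67 and -0.53 and Hspa1b lies at 2.13, while the untreated values stay within the limits.

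Lineages were also compared within libraries, since cells of 1 library share most of its preparation. Per the labels, CD3+ and CD3- cells were mixed 1:1 for the anti-PD1 sorts, so T cells and myeloid cells there were sorted as separate fractions. The part of that sort in the T cell ratios was not tested. Microglia were set against monocytes and macrophages. At least 2-fold differences numbered 13 higher and 4 lower of 34 in anti-PD1 KO, 8 higher and 6 lower in anti-PD1 WT, 1 higher and 7 lower in untreated KO and 2 higher and 13 lower in untreated WT. Background shares higher and lower were 17.7% and 9.69% in anti-PD1 KO, 13.8% and 11.8% in anti-PD1 WT, 14% and 10.7% in untreated KO, and 17.7% and 12.1% in untreated WT. Egr3 was the only gene at least 2-fold higher in microglia in every library, with log2 ratios of 3.32, 3.57, 1.94 and 3.01 in the order used so far. Fosl2, Nr4a2 and Dusp5 were at least 2-fold lower in microglia in every library, Nr4a2 with -2.16, -2.38, -2.86 and -2.11. Klf4 was lower in microglia throughout and past 2-fold in 3 of the 4 libraries. The share of all genes past 2-fold in every library was not computed, here or for the T cell comparison below.

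Other members turned with treatment. The HSP70 pair had log2 ratios of microglia over monocytes and macrophages of 2.39 in anti-PD1 KO, 3.05 in anti-PD1 WT, -0.55 in untreated KO and -0.76 in untreated WT. Ier2 had 1.60 in anti-PD1 KO, 0.47 in anti-PD1 WT, -0.67 in untreated KO and -1.70 in untreated WT, and Zfp36 1.36 in anti-PD1 KO, 0.13 in anti-PD1 WT, -0.49 in untreated KO and -0.95 in untreated WT. All 3 were higher in microglia in both anti-PD1 libraries and lower in both untreated ones, except that Zfp36 in anti-PD1 WT lay on the lower side with TMM factors. Egr1 was higher in microglia in every library but by very different amounts, 4.21 in anti-PD1 KO, 3.37 in anti-PD1 WT, 0.46 in untreated KO and 1.15 in untreated WT. Its level in monocytes and macrophages was low in both anti-PD1 libraries. In T cells over monocytes and macrophages the HSP70 pair had 1.41 in anti-PD1 KO, 2.65 in anti-PD1 WT, -0.53 in untreated KO and -0.67 in untreated WT, the same turn. At least 2-fold differences there numbered 8 higher and 7 lower in anti-PD1 KO, 9 higher and 8 lower in anti-PD1 WT, 3 higher and 10 lower in untreated KO and 3 higher and 12 lower in untreated WT, against backgrounds higher and lower of 27.4% and 16.5%, 26.6% and 17%, 19.3% and 17.7%, and 21.5% and 18.6%. Over both lineage comparisons and all libraries there were 47 values at least 2-fold higher and 67 at least 2-fold lower, and with TMM factors 32 and 88. Dusp2 and Dusp5 were the feedback genes at least 2-fold higher in T cells in both anti-PD1 libraries, and Ier3 and Zfp36 were at least 2-fold below in all 4. Hsph1 was the only member at least 2-fold higher in T cells in every library.

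Per cell, the 11 heat shock genes together took a median of 0.315% in anti-PD1 KO, 0.325% in anti-PD1 WT, 1.46% in untreated KO and 1.45% in untreated WT of the UMIs of a monocyte or macrophage. The 23 immediate early genes took 0.831% in anti-PD1 KO, 1.44% in anti-PD1 WT, 1.51% in untreated KO and 1.61% in untreated WT. The heat shock share divided the libraries by treatment, and the immediate early share set anti-PD1 KO apart from the other libraries. In microglia the medians were 0.292% in anti-PD1 KO, 0.395% in anti-PD1 WT, 1.34% in untreated KO and 1.08% in untreated WT for heat shock genes, and 1.18% in anti-PD1 KO, 1.33% in anti-PD1 WT, 1.16% in untreated KO and 0.763% in untreated WT for immediate early genes. In T cells they were 0.34% in anti-PD1 KO, 0.459% in anti-PD1 WT, 1.47% in untreated KO and 1.37% in untreated WT for heat shock genes, and 0.602% in anti-PD1 KO, 0.813% in anti-PD1 WT, 0.751% in untreated KO and 0.675% in untreated WT for immediate early genes. The interquartile range for heat shock genes was 0.241% to 0.41% in anti-PD1 KO and 0.878% to 2.22% in untreated KO monocytes and macrophages, without overlap.

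**Figure D5:**
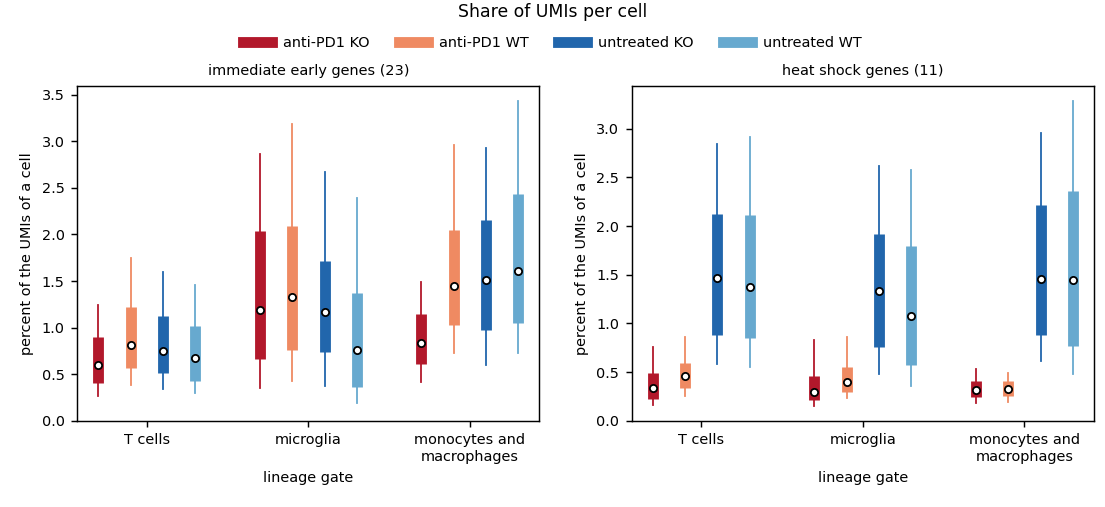
Percent of a cell's UMIs from the 23 immediate early and the 11 heat shock genes, by lineage and library, as medians with quartiles and 10th and 90th percentiles over cells. Heat shock medians lie between 0.292% and 0.459% in anti-PD1 libraries and between 1.08% and 1.47% in untreated libraries.

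The families went together across cells mainly without treatment. With cells thinned to 1000 UMIs, Spearman's rho between immediate early and heat shock counts in monocytes and macrophages was 0.04 in anti-PD1 KO (3044 cells), 0.02 in anti-PD1 WT (5452), 0.55 in untreated KO (713) and 0.36 in untreated WT (1378). In microglia it was 0.17, 0.23, 0.35 and 0.53 in the same order, and in T cells -0.07, 0.05, 0.31 and 0.29. Cells of a library share its preparation and a fixed total of thinned counts. Mean heat shock counts per thinned cell in monocytes and macrophages were 3.41, 3.40, 16.2 and 17.1 in the same order. Neutrophils, gated without treatment only, had means of 3.83 in KO and 3.64 in WT, with rho of 0.36 and 0.37. The part of sparse heat shock counts in the weak values was not tested, and those values are no finding.

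The mitochondrial share of a cell, a common mark of stressed or leaky cells, did not order the heat shock genes in 1 way. With cells divided evenly into 3 bins from the lowest to the highest mitochondrial share, the HSP70 pair of untreated monocytes and macrophages stood at 6757, 7468 and 4803 CPM in KO and at 5428, 7373 and 8880.5 CPM in WT. In T cells the same bins were near level, at 4469, 4496 and 4287 CPM in untreated KO and 4455, 4337 and 4431 CPM in untreated WT. Immediate early genes of untreated microglia did have an order, at 16082, 13669 and 10042 CPM in KO and 14355, 10828 and 6154 CPM in WT, lowest in the cells with the highest mitochondrial share in both. In anti-PD1 microglia the same sums were 13607, 13301 and 12577 CPM in KO and 13344, 14445 and 14664 CPM in WT. In every bin of every lineage the HSP70 pair of an untreated library stood above that of the anti-PD1 library of the same genotype. The bins were cut within each library, so they are not matched on mitochondrial share between libraries. The median share in monocytes and macrophages was 1.59% in anti-PD1 KO, 0.545% in anti-PD1 WT, 4.10% in untreated KO and 2.80% in untreated WT. The part of mitochondrial share in the gap between treatments was not tested.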

How the data were processed

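Live CD45.2+ brain immune cells of 4 groups were profiled in 1 library each. The deposited values were raw UMI counts per gene and barcode, not normalized. Per the file headers, the authors used Cell Ranger 7.2.0 for the anti-PD1 and 3.1.0 for the untreated libraries; per the submitters' processing notes, the builds were mm10 and GRCm38. The labels give 1 kit of 10x Genomics for the 5' end for all libraries. The setting for intronic reads is not given in the sources used here.

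The tools were scanpy 1.11.5, pandas 2.3.3, scipy 1.17.1 and numpy 2.4.6 under Python 3.11.15, and 30406 shared genes were used. A cell needed 200 detected genes and no more than 10% mitochondrial UMIs (7881 in anti-PD1 KO, 8742 in anti-PD1 WT, 2726 in untreated KO and 4982 in untreated WT remained after doublet removal). Scrublet called at most 2 doublets per library, so the top-scoring 594, 722, 83 and 280 cells were removed at a nominal 0.8% per 1000 barcodes. Gates on raw marker counts, set after markers but not members were seen, named lineages; cells passing several gates were left out, as were gates under 50 cells. Macrophages were split at 0.2% of UMIs from C1q genes.

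UMIs were summed per gate and library and given as CPM. A pseudocount of 0.5 counts went into each log2 ratio, a gene needed 50 UMIs over both sums, and 2-fold was the size named. Exact conditional and Clopper-Pearson intervals of 95% cover counting error only. No test was possible with 1 library per group. In data simulated with counting error alone the intervals held the true value for 95.2% to 96.0% of genes, which that setting fixes in advance. Spread between cells, mice or libraries was not simulated.

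The text names all 34 genes, with Isg15 as the genotype check and up to 3 genes per companion list and lineage with 1 direction of KO against WT in both pairs; Tgfbi, Lyz2 and Cd3e are gate markers. Members and lists were chosen with earlier results of these data known. Alternatives were a filter at 500 genes and 5% mitochondrial counts or none, doublets kept, stricter gates, TMM factors (edgeR 4.0.16), DESeq2 1.42.0 size factors (R 4.3.3), another denominator, a mean over cells, thinning to 1000 or 2000 UMIs, 10 UMIs as the minimum or no minimum, and cells with shared barcodes dropped. Positions and introns came from GENCODE on GRCm38.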

Additional observations from a re-analysis of the deposited data

Results flagged for a closer look

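The position of microglia relative to monocytes and macrophages turned round with treatment for 6 members and for the HSP70 sum, in that both anti-PD1 libraries had the gene higher in microglia and both untreated libraries had it lower, each with a counting interval that left out 0. At these counts the intervals left out 0 for small ratios too, such as 0.06 and 0.12 for Hspa8 in anti-PD1 KO and WT. The rule was applied to members only and the share of all genes that meet it was not computed. The count is therefore not read as a result about the members. The mean log2 ratio of the anti-PD1 libraries exceeded that of the untreated libraries by 3.41 for Hspa1a, 3.37 for Hspa1b, 3.37 for Hspa1a and Hspa1b together, 2.22 for Ier2, 1.5 for Ier5, 1.47 for Zfp36 and 0.61 for Hspa8. The same turn was present between T cells and monocytes and macrophages for Hspa1a, by 2.48, for Hspa1b, by 2.80, for their sum, by 2.63, and for Klf6, by 0.99. With TMM factors Zfp36 and Hspa8 in microglia and Klf6 in T cells of anti-PD1 WT changed sign, as did Hspa8 in microglia of anti-PD1 KO. With 1 library per group the difference between the treatments was not tested for any of these, and treatment, day, sort mixing and Cell Ranger version cannot be told apart.

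For the HSP70 sum the widest gap between treatments lay in monocytes and macrophages, whose level was 119.8 CPM in anti-PD1 KO and 35.2 CPM in anti-PD1 WT against 6399 and 6992 CPM in untreated KO and WT. Ier2 in the same lineage stood at 80.9 CPM in anti-PD1 KO and 216 CPM in anti-PD1 WT against 314 and 388 CPM in untreated KO and WT, and Ier5 at 112 and 274 CPM against 490.3 and 622 CPM.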

How the results depend on the processing

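Each log2 ratio past 2-fold (244 values) was recomputed under 12 planned settings, and none reversed. TMM and DESeq2 factors moved no ratio by more than 0.70, so they could not reverse a value past 2-fold. Of 2918 recomputed values 2827 stayed past 2-fold, with 218 of 244 under TMM factors and 243 of 244 with shared barcodes dropped. These totals include the settings with a minimum of 10 UMIs or none, which left the sums unchanged, so that all 244 values stayed by construction. The anti-PD1 log2 ratio of KO against WT for the HSP70 sum ran from 1.17 to 2.03 in monocytes and macrophages and from 0.67 to 1.16 in microglia, where 4 of 12 settings put it under 2-fold; Klf4 in untreated microglia ran from 0.82 to 1.13. Over the 3 lineages, counts in untreated KO against WT were 1 higher and 0 lower, and became 2 higher with the stricter cell filter, 0 higher and 2 lower with a mean over cells, and 2 lower with stricter gates and with thinning. Values higher after anti-PD1 numbered 5 in KO and became 10 with TMM factors, 10 with DESeq2 size factors and 8 with the total of genes with under 1 kb of intron; the 10 in WT became 16 with TMM factors and 17 with that total. The short-intron total and the sub-gates were chosen after seeing the data. TMM factors moved all anti-PD1 against untreated ratios by 0.28 to 0.44 in microglia and in monocytes and macrophages and by -0.19 to -0.12 in T cells, KO against WT after anti-PD1 by -0.17 to -0.02, and lineage ratios by -0.70 to -0.13; DESeq2 factors moved the microglia ratios of anti-PD1 against untreated by 0.24 in KO and 0.39 in WT, and the short-intron total the T cell ratios by 0.27 and 0.34. Thinning to 2000 in place of 1000 UMIs moved 24 of 24 shares of cells. With the stricter filter the 24 per-cell medians stayed within the quartiles over cells, a loose bound: the furthest, immediate early genes in untreated WT microglia, became 1.01% in place of 0.763%. The cause of these moves was not tested, except that the scalings shift every gene of a contrast alike. Depth limits Egr2 and Egr3 in T cells (21 and 11 UMIs of Egr2, 49 and 16 of Egr3 in anti-PD1 KO and WT). No paired analysis was possible because each group has 1 library, so the groups share fewer than 2 replicate numbers.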

Other observations

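Basophils and mast cells, gated in the untreated libraries only, carried the highest immediate early level of any gate there, with a sum over the 23 genes of 44899 CPM in untreated KO and 34007 CPM in untreated WT. Their heat shock sum was 26707 CPM in KO and 25806 CPM in WT. Jun alone stood at 7383 and 7431 CPM, against 1441 and 1776 CPM in monocytes and macrophages of the same libraries. Neutrophils came next for immediate early genes in KO, at 26914 CPM in KO and 18461 CPM in WT, with heat shock sums of 4021 and 3204 CPM, so that high immediate early levels occurred with high and with low chaperone levels in cells of the same libraries. The gates held 50 and 82 basophils and mast cells and 71 and 66 neutrophils in KO and WT.

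Ubb, a polyubiquitin gene of the heat shock response, stood in monocytes and macrophages at 695 CPM in anti-PD1 KO against 2111 in anti-PD1 WT, and 813 in untreated KO against 1357 in untreated WT. Cd69, an early activation marker of lymphocytes, stood in the same gate at 10.6 CPM in anti-PD1 KO against 44.8 in anti-PD1 WT, and 77.2 in untreated KO against 206 in untreated WT. Socs3, a feedback inhibitor of cytokine signalling, stood there at 115 CPM in anti-PD1 KO against 429.5 in anti-PD1 WT, and 204 in untreated KO against 338 in untreated WT, and Ccl4, a chemokine, at 409 CPM in anti-PD1 KO against 832 in anti-PD1 WT, and 582 in untreated KO against 1231 in untreated WT. All 4 were lower in KO in both pairs. In microglia Cxcl2, a neutrophil chemokine, stood at 129 CPM in anti-PD1 KO against 55.1 in anti-PD1 WT, and 159 in untreated KO against 85.0 in untreated WT, and Tnfaip3, which restrains NF-kB, at 551 CPM in anti-PD1 KO against 314 in anti-PD1 WT, and 371 in untreated KO against 165 in untreated WT, both higher in KO in both pairs. These genes were picked for having 1 direction in both pairs, so that direction is no finding.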
